A study of Mus musculus with 6 samples.

Results

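The 38 genes described here drive or control the cell cycle and DNA replication. They were chosen by name from a list of cyclins, cyclin-dependent kinases (CDKs) and their inhibitors, replication and nucleotide supply genes, and genes of mitosis, and 38 of 38 were found among the 55421 genes of the count table. Hippocampal RNA came from male wild-type C57BL/6N mice, 8 to 10 weeks old, each of which gave 1 stranded mRNA library. The SP group (n = 3 mice) received the neuropeptide substance P under the skin, 100 µL at 10 µM, on 14 consecutive days, and the vehicle group (n = 3 mice) received saline in the same volume over the same days. The 6 libraries held between 22349964 and 27605935 estimated counts, and a count of 0 allowed a level of up to 0.109 to 0.135 CPM, counts scaled to the library total times its TMM factor, a limit that covers counting error only. Group names follow the deposited labels, and higher or lower always means the libraries with the SP label against those with the vehicle label. No gene was targeted in this design, so no targeted gene could be used to check the labels, and the sign of every difference below depends on them. Whether the labels were exchanged between the groups is not settled, and an exchange would turn every sign.

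Markers of hippocampal granule and pyramidal neurons were abundant in every library. Summed over 10 genes, of which *Zbtb20* was the most abundant, they reached 1267, 1236 and 1308 CPM in the vehicle libraries and 1374, 1490 and 1238 CPM in the SP libraries. Markers of neocortical layer neurons, 8 genes led by *Rasgrf2*, were also present, at 290.1 to 306 CPM in the vehicle libraries and 257 to 271 CPM in the SP libraries. Library SP 1 stood apart in choroid plexus markers, 9 genes led by *Ttr* with a sum of 176 CPM where the other 5 libraries had 2835 to 4794 CPM. This library was kept in every fit except those without replicate 1, and counts without each replicate number are given for the members as a set.

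A dividing cell passes from G1 into S phase when cyclin D with CDK4 or CDK6, and then cyclin E with CDK2, phosphorylate the retinoblastoma family of pocket proteins and so release E2F transcription factors. E2F targets include the MCM helicase and the enzymes that supply nucleotides, whereas cyclin B with CDK1 and the spindle checkpoint genes act later, at mitosis. In the adult hippocampus few cells divide, among them neural progenitors of the dentate gyrus and oligodendrocyte precursors, and most of the RNA comes from postmitotic neurons and glia, which also use some cyclins and CDK inhibitors. In bulk tissue, fewer dividing cells and less RNA per cell cannot be told apart.

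None of the 36 members that could be tested differed between the groups at the thresholds used. With edgeR's quasi-likelihood test, mice paired by their labelled batch, 0 of 36 members passed FDR < 0.1 and |log2FC| > 0.3, where 5 of all 17069 tested genes did (0.0293%). DESeq2 also called 0 members, but it gave an adjusted p for only 13 of the 36 with the pairing and 21 without it, and the others, *Ccna2* among them in both, could not be called. An unadjusted p under 0.05 was found for 3 of 36 members (8.33%), where all tested genes gave 10.1%. Of these, *Ccnd2* and *Bub1b* were higher in the SP libraries, where 4.48% of all tested genes were higher at that level, and *Ccna2* was lower, where 5.59% were. With DESeq2 and the pairing, 0 of 36 members had an unadjusted p under 0.05, against 4.13% of all tested genes. With DESeq2 and no pairing it was 2 members (5.56%), against 8.1%. The libraries of the 2 groups did not overlap in CPM for 5 of 36 members (13.9%), *Ccnd2*, *Cdk4*, *E2f1*, *Rrm2* and *Bub1b*, against 18.2% of all tested genes. Scaled to the library totals alone it was 4, without *Cdk4*, against 18.1%. The SP mouse was higher in 3 of 3 pairs for 6 members, *Ccnd1*, *Ccnd2*, *Cdk4*, *Mcm7*, *Plk1* and *Bub1b*. It was lower in 3 of 3 pairs for 3, *E2f1*, *Rrm2* and *Ccna2*. The share over all tested genes was not determined, so no difference is read from these counts or from pairs at single genes. Same-numbered mice hardly correlated once each group's mean was subtracted (Pearson coefficients 0.0118, -0.0798 and 0.0385). Log2 fold changes were above 0 for 20 members and below 0 for 16, with a median of 0.046 beside 0.0015 for all tested genes. Without replicate 1, 2 or 3 that median was 0.024, 0.030 and 0.022, and 1, 0 and 4 members (2.78%, 0% and 11.1%) had an unadjusted p under 0.05, against 5.93%, 11.4% and 10.2% of all genes tested in these fits.

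Levels spanned a wide range. Per kb of exon, the scale on which genes can be compared, means over the 6 libraries reached from 13.5 CPM per kb for *Ccnd1* to 0.0394 for *Bub1*. *Bub1* had only 2 to 6 counts per library and a range that overlapped that of *Aurkb*, so no exact fold is given. *Ccnd1*, *Pcna*, *Cdk4*, *Ccnd2* and *Cdkn1b* were the 5 members above 10 CPM per kb, and the ranges of neighbours in that order overlapped, while each library of *Ccnd1*, *Pcna* and *Cdk4* was above all of *Cdkn1b*. *Rb1* and *Rbl2* followed at 7.27 and 7.05 CPM per kb, below the lowest library of *Cdkn1b* (10.6) and with overlapping ranges. At the other end, *Ccnb1*, *Cdk1*, *Cenpf*, *Aurkb* and *Bub1* were all under 0.1 CPM per kb. In summed CPM, the G1 cyclins and kinases had 231 and the pocket proteins with *E2f1* had 105 in the vehicle group, where the S/G2/M cyclins with *Cdk1* had 4.35 and the mitosis genes 11.9. Of the 38 members, 21 were under 1 CPM per kb.

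**Figure D1:**
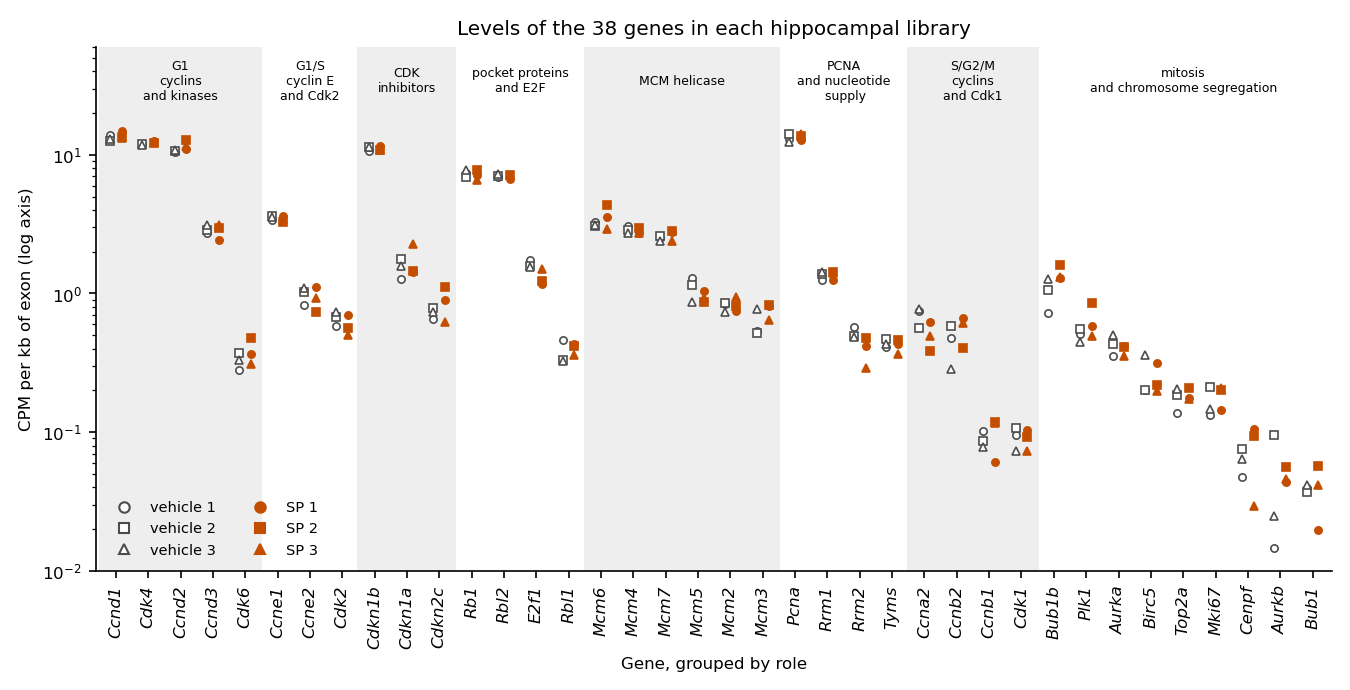
CPM per kb of exon (log axis) of each of the 38 genes in the 3 vehicle libraries (open symbols) and 3 SP libraries (filled symbols), grouped by role. The symbols of both groups lie over each other for most genes, and the levels fall from 13.5 CPM per kb for *Ccnd1* to 0.0394 for *Bub1*.

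The G1 cyclins and their kinases were the most abundant role. *Ccnd2* (ENSMUSG00000000184, chr6:127125162-127152193 of GRCm38, minus strand) encodes cyclin D2, which neural progenitors and granule cell precursors use. It had 99.0, 99.8 and 102 CPM in the vehicle libraries and 104, 120 and 109 CPM in the SP libraries. Each SP library was above the highest vehicle library, SP 1 only just, and library SP 2 was the highest. The log2 fold change was 0.14 (standard error 0.0588, 95% interval 0.0046 to 0.28), with an FDR of 0.482 from edgeR, and the SP mouse was higher in 3 of 3 pairs. It ranged from 0.080 to 0.18 when 1 replicate number was left out. *Cdk4*, the main partner of D cyclins, had 38.9, 38.8 and 38.2 CPM against 40.7, 39.4 and 40.2 CPM. Its groups did not overlap, which held only with the TMM factors, and they were 0.054 apart on the log2 scale with an interval from -0.083 to 0.19. *Ccnd1* and *Ccnd3*, the other D cyclins, had log2 fold changes of 0.075 and -0.040, and *Cdk6* had 0.23, or 0.14 to 0.38 with 1 replicate number left out, and its highest value, 6.72 CPM, in library SP 2. Summed over the 5 genes, the level was 231 ± 2.67 CPM in the vehicle group and 247 ± 7.65 CPM in the SP group (SD, n = 3 mice each). The groups did not overlap in this sum, which is led by *Ccnd2* and so is not independent of that gene. In the sums of the other roles the groups overlapped.

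Cyclin E and CDK2 carry the cell over the G1/S border. *Ccne1* had a level of 9.37 ± 0.363 CPM in the vehicle group and 9.17 ± 0.439 CPM in the SP group (SD, n = 3 mice each), and a log2 fold change of -0.033. *Ccne2* and *Cdk2* had log2 fold changes of -0.085 and -0.18, with intervals that reached from -0.57 to 0.40 and from -0.62 to 0.26. All 3 values were below 0 and all 3 intervals included 0. Without replicate 2 those of *Ccne1* and *Ccne2* turned to 0.025 and 0.098, and that of *Cdk2* was -0.40 without replicate 1 and -0.0043 without replicate 3.

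Of the 3 CDK inhibitors, *Cdkn1b*, which encodes p27 and holds cells out of the cycle, was the most abundant. It had 1125, 1274 and 1434 counts in the vehicle libraries and 1237, 1194 and 1091 in the SP libraries. In CPM the groups lay over each other, and the log2 fold change of -0.0061 had an interval from -0.16 to 0.15. *Cdkn1a*, which encodes the p53 target p21, had 4.56, 6.30 and 5.59 CPM against 5.11, 5.19 and 8.08 CPM. Only library SP 3 was above the vehicle range, and the log2 fold change of 0.15 became -0.067 without replicate 3. *Cdkn2c*, which encodes the CDK4 and CDK6 inhibitor p18, had a log2 fold change of 0.26, or 0.12 to 0.48 with 1 replicate number left out, and varied most among the SP libraries, with 2.43, 2.99 and 1.66 CPM.

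The pocket proteins restrain E2F in resting cells. *Rb1* had 44.2 ± 2.48 CPM in the vehicle group and 43.2 ± 3.44 CPM in the SP group (SD, n = 3 mice each). *Rbl2*, which encodes the p130 protein of quiescent cells, had 52.7, 52.9 and 55.0 CPM in the vehicle libraries and 50.8, 54.2 and 53.8 CPM in the SP libraries. Their log2 fold changes were -0.036 and -0.017, with intervals within 0.3 of 0. *Rbl1*, the p107 gene of cycling cells, was much lower per kb, at 0.388 CPM, and had a log2 fold change of 0.12, or 0.023 to 0.23 with 1 replicate number left out. *E2f1* (ENSMUSG00000027490, chr2:154559407-154569892, minus strand), which encodes an activator of S phase genes, had 127, 123 and 135 counts in the vehicle libraries and 87, 93 and 106 in the SP libraries. In CPM these were 5.46, 4.97 and 4.90 against 3.71, 3.86 and 4.76, so that the groups did not overlap but library SP 3 lay just under the vehicle range. The log2 fold change was -0.32 (standard error 0.153, 95% interval -0.68 to 0.040) with an FDR of 0.536 from edgeR, and the SP mouse was lower in 3 of 3 pairs. It was -0.20 without replicate 1 and -0.46 without replicate 3. Its unadjusted p was under 0.05 without the pairing.

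**Figure D2:**
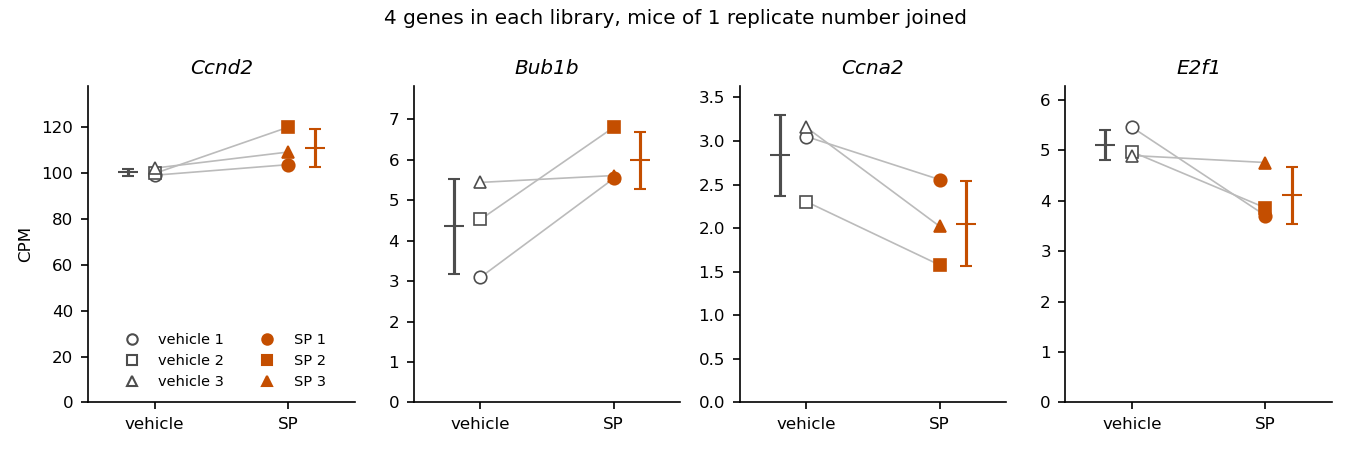
CPM of *Ccnd2*, *Bub1b*, *Ccna2* and *E2f1* in each library, on axes that start at 0, with grey lines that join the mice of 1 replicate number and bars that give the mean and SD of each group (n = 3 mice). *Ccnd2* and *Bub1b* were higher and *Ccna2* and *E2f1* lower in each pair, and none of the 4 genes passed the FDR threshold.

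E2F factors bind short words near the start of their targets, and the listed promoters of the members were searched for them. RefSeq promoters of GRCm38.p6, from 250 bases before to 50 after the start site, matched 31 of the 38 members, 4 of them with 2 promoters, in which case a match in either counted. The E2F words were TTTCCCGC, TTTGGCGC, TTTCGCGC and TTTGCCGC on both strands. At least 1 of them was found in 7 of 31 members (22.6%), against 2.60% of all 27025 genes with a promoter. By role, it was found in 4 of 5 MCM genes, with no listed promoter for *Mcm4*. In the group of *Pcna* and nucleotide supply it was found in 0 of 4 genes. The 3 promoters below are shown because each is the only listed promoter of a helicase subunit and holds more than 1 such word, with the E2F words in capitals. One of the 2 promoters of *Mcm7* also holds 2 words, at -165 and 16, and is not printed. *Mcm3* (chr1:20820263-20820562, minus strand) has its words after the start site, at 19 and 38 bases. *Mcm5* (chr8:75109259-75109558, plus strand) and *Mcm6* (chr1:128359656-128359955, minus strand) each have a pair of words on opposite strands that share bases, at -153 and -149 in *Mcm5* and at -110 and -106 in *Mcm6*, and *Mcm6* has another word at -47. The other capitals in *Mcm5* mark TTTAAA, a word described with the mitotic genes.
Mcm3: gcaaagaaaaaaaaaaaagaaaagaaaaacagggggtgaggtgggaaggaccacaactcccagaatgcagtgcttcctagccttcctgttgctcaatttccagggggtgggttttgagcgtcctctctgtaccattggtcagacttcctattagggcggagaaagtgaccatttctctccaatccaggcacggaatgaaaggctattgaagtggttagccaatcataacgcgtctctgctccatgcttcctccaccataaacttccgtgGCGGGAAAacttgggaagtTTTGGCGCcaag
Mcm5: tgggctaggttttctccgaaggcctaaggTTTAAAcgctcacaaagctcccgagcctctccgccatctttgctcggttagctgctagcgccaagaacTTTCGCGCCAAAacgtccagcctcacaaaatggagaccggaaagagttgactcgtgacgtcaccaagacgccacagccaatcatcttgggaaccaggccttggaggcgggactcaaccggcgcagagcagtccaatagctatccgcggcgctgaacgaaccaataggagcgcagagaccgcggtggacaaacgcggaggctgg
Mcm6: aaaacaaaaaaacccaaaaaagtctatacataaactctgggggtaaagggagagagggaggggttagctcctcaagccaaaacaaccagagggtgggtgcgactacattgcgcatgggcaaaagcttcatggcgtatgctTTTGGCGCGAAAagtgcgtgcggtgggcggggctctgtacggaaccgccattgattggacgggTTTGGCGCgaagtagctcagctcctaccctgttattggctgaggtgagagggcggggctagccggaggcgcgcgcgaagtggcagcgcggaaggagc

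The MCM genes encode the 6 subunits of the replicative helicase, and none reached an unadjusted p under 0.05 in the main comparison. *Mcm6* had the highest mean per kb of the subunits, with a range that overlapped that of *Mcm4*. It had 15.3, 14.4 and 14.5 CPM in the vehicle libraries and 16.6, 20.3 and 13.7 CPM in the SP libraries. The SP libraries spread on both sides of the vehicle range, with SP 2 highest and SP 3 lowest. *Mcm3* had 2.02, 1.94 and 2.90 CPM against 3.03, 3.11 and 2.43 CPM, and its log2 fold change of 0.33 had an interval from -0.21 to 0.87. *Mcm5*, which has 2 words as well, had 5.16, 4.57 and 3.48 CPM against 4.13, 3.45 and 3.68 CPM and a log2 fold change of -0.22, or -0.36 to -0.13 with 1 replicate number left out. *Mcm2*, *Mcm4* and *Mcm7* had 0.047, -0.041 and 0.090. The sum of the 6 subunits was 48.5 ± 2.09 CPM in the vehicle group and 51.2 ± 4.44 CPM in the SP group (SD, n = 3 mice each), with overlapping groups. The log2 fold changes of *Mcm3* and *Mcm6* fell to 0.15 and 0.018 without replicate 2, and to 0.20 for *Mcm3* when replicate 1 was left out instead. Leaving out replicate 3 raised them to 0.63 and 0.31, both with an unadjusted p under 0.05 and FDRs of 0.406 and 0.474 from edgeR.

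*Pcna*, the sliding clamp of the replication fork, and the nucleotide enzymes also act in DNA repair, which resting cells carry out. *Pcna* had 721, 839 and 819 counts in the vehicle libraries and 721, 797 and 751 in the SP libraries, a log2 fold change of 0.045 with an interval from -0.12 to 0.21. *Rrm1*, the large subunit of ribonucleotide reductase, had a log2 fold change of 0.0061 and an interval from -0.18 to 0.19. *Rrm2*, the small subunit, which is made mainly in S phase, had 37, 34 and 37 counts against 27, 32 and 18. In CPM its groups did not overlap, library SP 3 was lowest, and the SP mouse was lower in 3 of 3 pairs. The log2 fold change of -0.40 had an interval from -0.98 to 0.19 and an FDR of 0.630 from edgeR, and the value ranged from -0.59 to -0.26 with 1 replicate number left out. *Tyms*, which makes thymidylate, had -0.052.

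Genes of G2 and mitosis often carry the cell cycle genes homology region (CHR), whose words are TTTGAA and TTTAAA, near a CCAAT box bound by NF-Y. On both strands, a CHR word was found in 16 of 31 members (51.6%), against 30.6% of all genes with a promoter. Among genes with a listed promoter, it was found in 3 of 3 of the S/G2/M cyclins and *Cdk1* and in 7 of 8 mitosis genes. *Ccna2* and *Aurkb* of these groups had no listed promoter and were not searched. CCAAT was found in 22 of 31 members (71.0%), against 41.1% of all genes. The words are short and a match is only a description of the window. The promoters below are shown because they belong to late cell cycle genes from 0.0908 CPM per kb for *Cdk1* to 1.21 for *Bub1b*, with CHR and E2F words in capitals. *Cdk1* (chr10:69352863-69353162, minus strand) holds 2 CHR words, at -71 and -15, and an E2F word at -131. *Ccnb2* (chr9:70421505-70421804, minus strand) has CHR words at -167 and 4, *Plk1* (chr7:122159185-122159484, plus strand) at -89, -29 and 30, and *Bub1b* (chr2:118597961-118598260, plus strand) at 40.
Cdk1: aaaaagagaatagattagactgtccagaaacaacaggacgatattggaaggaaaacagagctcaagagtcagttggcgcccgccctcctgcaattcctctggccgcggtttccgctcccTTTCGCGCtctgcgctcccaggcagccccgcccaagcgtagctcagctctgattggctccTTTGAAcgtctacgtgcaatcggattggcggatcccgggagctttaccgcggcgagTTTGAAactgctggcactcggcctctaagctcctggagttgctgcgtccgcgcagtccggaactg
Ccnb2: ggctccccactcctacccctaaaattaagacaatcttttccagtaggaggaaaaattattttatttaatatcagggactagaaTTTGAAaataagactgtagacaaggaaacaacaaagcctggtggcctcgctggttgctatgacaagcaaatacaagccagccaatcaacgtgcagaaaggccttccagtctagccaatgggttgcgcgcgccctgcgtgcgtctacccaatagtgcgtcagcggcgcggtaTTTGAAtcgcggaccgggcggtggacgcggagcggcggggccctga
Plk1: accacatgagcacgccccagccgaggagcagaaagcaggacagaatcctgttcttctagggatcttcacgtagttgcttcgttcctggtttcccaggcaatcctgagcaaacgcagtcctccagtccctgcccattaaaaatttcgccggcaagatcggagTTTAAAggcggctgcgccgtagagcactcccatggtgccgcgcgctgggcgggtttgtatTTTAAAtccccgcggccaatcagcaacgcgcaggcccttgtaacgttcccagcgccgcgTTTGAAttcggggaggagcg
Bub1b: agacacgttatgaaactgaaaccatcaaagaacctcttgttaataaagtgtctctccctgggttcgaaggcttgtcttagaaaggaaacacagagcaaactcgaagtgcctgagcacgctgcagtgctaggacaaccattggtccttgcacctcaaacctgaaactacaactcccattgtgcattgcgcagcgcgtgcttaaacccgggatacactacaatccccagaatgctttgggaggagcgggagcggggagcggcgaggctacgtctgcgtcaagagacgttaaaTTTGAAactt

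**Figure D3:**
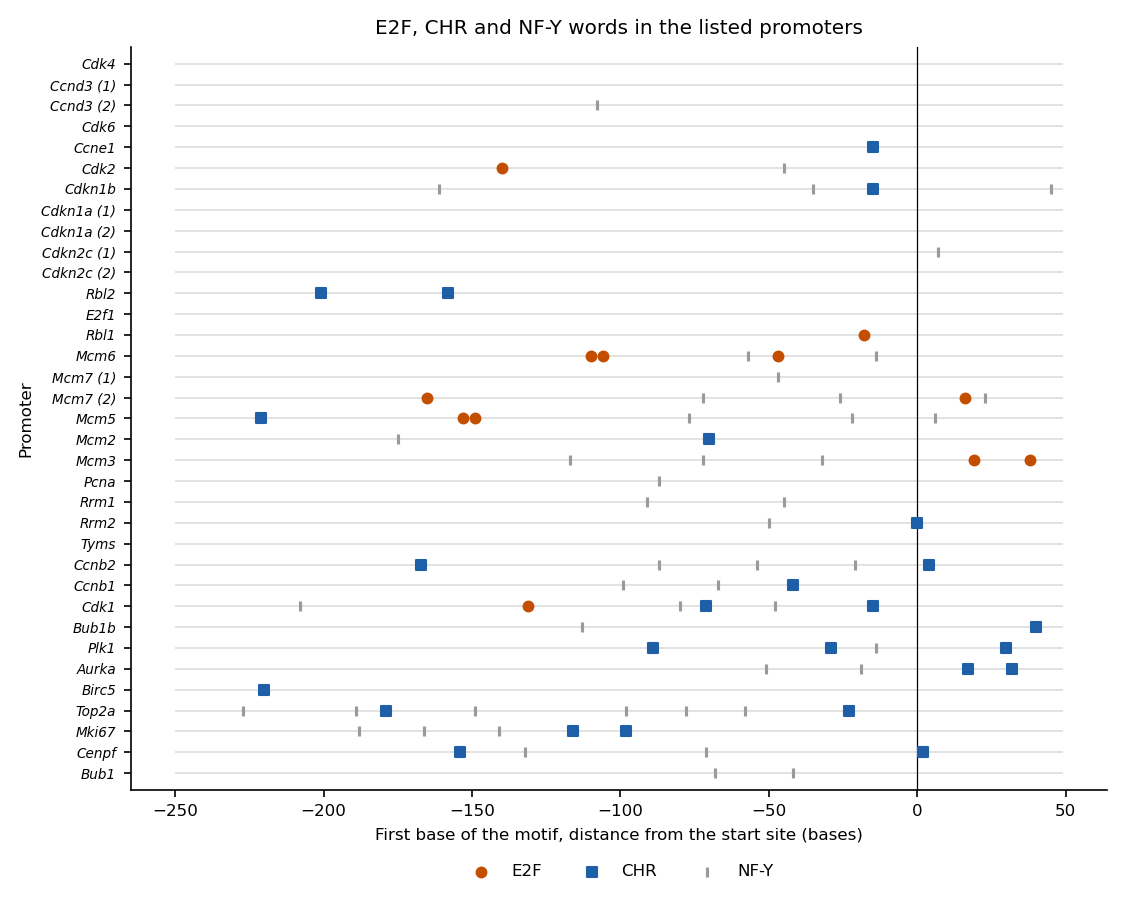
Positions of E2F words (circles), CHR words (squares) and CCAAT boxes (NF-Y, ticks) in the 35 listed promoters of 31 members, as the distance of the first base from the start site. E2F words were found mainly in the MCM genes, 4 of 5, and CHR words in 7 of 8 mitosis genes.

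The cyclins of S, G2 and M phase and their kinase were low. *Ccna2* (ENSMUSG00000027715, chr3:36564865-36572150, minus strand) encodes cyclin A2, which acts from S phase to early mitosis. It had 71, 57 and 87 counts in the vehicle libraries and 60, 38 and 45 in the SP libraries, or 3.05, 2.30 and 3.16 CPM against 2.56, 1.58 and 2.02 CPM. Library SP 1 was above library vehicle 2, so the groups overlapped, while the SP mouse was lower in 3 of 3 pairs. The log2 fold change was -0.48 (standard error 0.184, 95% interval -0.91 to -0.045) with an FDR of 0.458 from edgeR, and ranged from -0.60 to -0.39 when 1 replicate number was left out. Its unadjusted p was over 0.05 without the pairing. The exons of *Ccna2* overlap those of *Exosc9* on the opposite strand over 12.5% of their length. Whether the B cyclins and *Cdk1*, which start mitosis, share this difference cannot be told. *Ccnb2* had a log2 fold change of 0.34, *Ccnb1* 0.15 and *Cdk1* -0.037, with standard errors of 0.356 to 0.428 and intervals that all included both 0 and the value of *Ccna2*.

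Genes of mitosis and chromosome segregation included the highest log2 fold change of the members. *Bub1b* (ENSMUSG00000040084, chr2:118598211-118641591, plus strand) encodes the spindle checkpoint kinase BubR1. It had 72, 112 and 150 counts in the vehicle libraries and 130, 164 and 125 in the SP libraries, or 3.09, 4.53 and 5.44 CPM against 5.54, 6.81 and 5.61 CPM. The groups did not overlap, but vehicle 3 was just under the lowest SP library, and the vehicle libraries differed more among themselves than the SP libraries did. The log2 fold change was 0.48 (standard error 0.174, 95% interval 0.070 to 0.88) with an FDR of 0.437 from edgeR, higher in 3 of 3 pairs. It was 0.32 without replicate 1 and 0.70 without replicate 3. Per kb, *Bub1b* was at 1.21 CPM where its partner *Bub1*, the other checkpoint kinase, was at 0.0394.

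The other tested genes of mitosis and chromosome segregation had lower log2 fold changes than *Bub1b*. Their intervals included its 0.48, and a difference from it was not tested. *Mki67*, which encodes the Ki-67 antigen, had 31, 53 and 41 counts in the vehicle libraries and 34, 49 and 47 in the SP libraries. The groups lay over each other, and the log2 fold change of 0.18 had an interval from -0.33 to 0.69. It was 0.33 without replicate 2 and 0.011 without replicate 3. *Top2a*, the topoisomerase of dividing cells, had 29, 41 and 51 counts against 37, 45 and 35 and a log2 fold change of 0.083. *Plk1*, *Cenpf*, *Birc5* and *Aurka*, which act in spindle and kinetochore function, had log2 fold changes of 0.33, 0.21, -0.057 and -0.12, each with an interval that included 0. *Plk1* ranged from 0.17 to 0.42 with 1 replicate number left out. Summed, the 13 genes of S/G2/M and mitosis had 16.3 ± 1.99 CPM in the vehicle group and 18.0 ± 1.44 CPM in the SP group, and the 9 mitosis genes among them 11.9 ± 2.26 and 14.25 ± 1.80 CPM (SD, n = 3 mice each), with overlapping groups in both sums. *Bub1b* alone gave 22.1% to 35.1% of the counts of the 13 genes. In a sum that was chosen after these values were seen, the other 12 genes, which include the lower *Ccna2*, had 254, 309 and 340 counts in the vehicle libraries and 296, 303 and 243 in the SP libraries. This was 11.9 ± 0.867 CPM in the vehicle group and 12.0 ± 0.972 CPM in the SP group (SD, n = 3 mice each), so that the means differed by less than the spread between mice.

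Depth limited what could be seen for the members with few counts. *Aurkb*, with 1, 7 and 2 counts in the vehicle libraries and 3, 4 and 3 in the SP libraries, and *Bub1*, with 4, 4 and 5 against 2, 6 and 4, did not pass the filter on low counts and were not tested. They were at the limit of 3 counts or fewer in 4 libraries and in 1 library. Another 6 members were near the limit, with a mean under 30 counts per library, namely *Ccnb1* (9.50), *Cdk1* (10.8), *Ccnb2* (18.5), *Birc5* (20.8), *Aurka* (25.5) and *Cenpf* (26.0). The intervals of *Ccnb1*, *Ccnb2* and *Cenpf* reached past 1 on the log2 scale. At the other end, 12 members had intervals that lay wholly within 0.3 of 0, among them all 3 D cyclins, *Cdk4*, *Cdkn1b*, *Rb1*, *Rbl2* and *Pcna*. The median standard error was 0.172 for the members and 0.0906 for all tested genes. In 21 of 36 members it was within 1.5 times the error that counting alone gives, so for these the number of reads was a main part of the error. For *Ccnd2* and *Rb1* it was over 2 times that error.

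**Figure D4:**
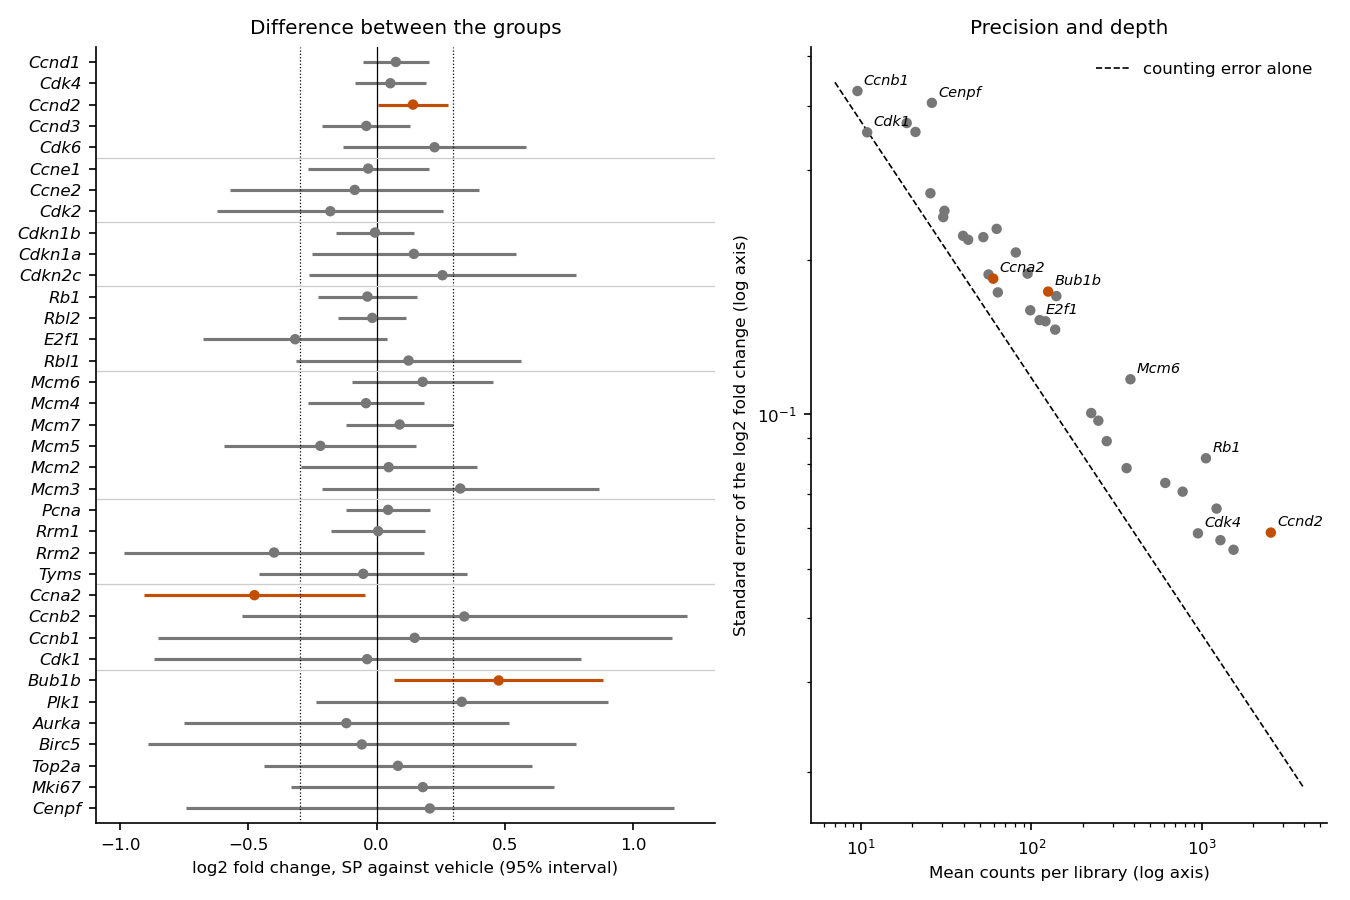
Left, log2 fold change of the 36 tested members with its 95% interval from edgeR (dotted lines at -0.3 and 0.3, orange for an unadjusted p under 0.05). Right, standard error against mean counts per library (both log axes), with the error of counting alone as a dashed line. Intervals widen from the D cyclins to the low mitotic genes such as *Ccnb1*, which had 9.50 counts per library.

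Within the SP group, library SP 3 was the lowest of the 3 SP libraries in 19 of 36 members (52.8%), against 32.4% of all tested genes, while SP 2 was the highest in 16 (44.4%) and SP 1 in 14 (38.9%), against 37.5% and 29.8%. *Mcm6*, *Cdk6*, *Cdkn2c* and *Plk1*, for example, were highest in SP 2 and lowest in SP 3. Of the 12 marker lists given here, the sums of 3 had that order too, those of oligodendrocyte precursors, astrocytes and hippocampal neurons, the last with 1490 CPM in SP 2 and 1238 CPM in SP 3. Whether the make-up of the tissue samples had a part in this was not tested.

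Markers of cells that divide in this tissue, and those of immature neurons, had similar summed levels in both groups. Neural progenitor markers, 8 genes led by *Hopx*, summed to 155 ± 0.831 CPM in the vehicle group and 161 ± 6.19 CPM in the SP group. Oligodendrocyte precursor markers, 7 genes led by *Gpr17*, had 207 ± 13.0 and 212 ± 5.07 CPM. Immature neuron markers, 6 genes led by *Calb2*, had 114 ± 6.54 and 105 ± 7.69 CPM (SD, n = 3 mice each). The groups overlapped in each of these sums. Among the 6 immature neuron genes, 3 had log2 fold changes above 0 and 3 below, from -0.43 to 0.29. The groups of 2 of them did not overlap, lower in the SP libraries, and 1 had an unadjusted p under 0.05. Endothelial, mural and astrocyte markers, led by *Flt1*, *Rgs5* and *Slc1a2*, also overlapped, with 223, 207 and 3797 CPM in the SP group against 223, 204 and 3809 CPM. The progenitor gene *Tfap2c* had 0 counts in 2 libraries and the blood cell gene *S100a9* in 1. The T cell gene *Cd3e* had 2, 1 and 7 counts in the vehicle libraries and 0 in each SP library. These 3 genes are named only because they had 0 counts, and such low counts do not allow the groups to be compared. Blood cell markers, 8 genes led by *Hbb-bs*, had 159 ± 17.7 and 193 ± 52.6 CPM, ependymal markers, 5 genes led by *Foxj1*, had 38.1 ± 1.78 and 43.4 ± 4.15 CPM, and leptomeningeal markers, 6 genes led by *Dcn*, had 143 ± 5.21 and 115 ± 29.9 CPM (SD, n = 3 mice each). Of the marker lists given here, that of neocortical layer neurons had groups that did not overlap. The part of cell types in the members' values was not tested.

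**Figure D5:**
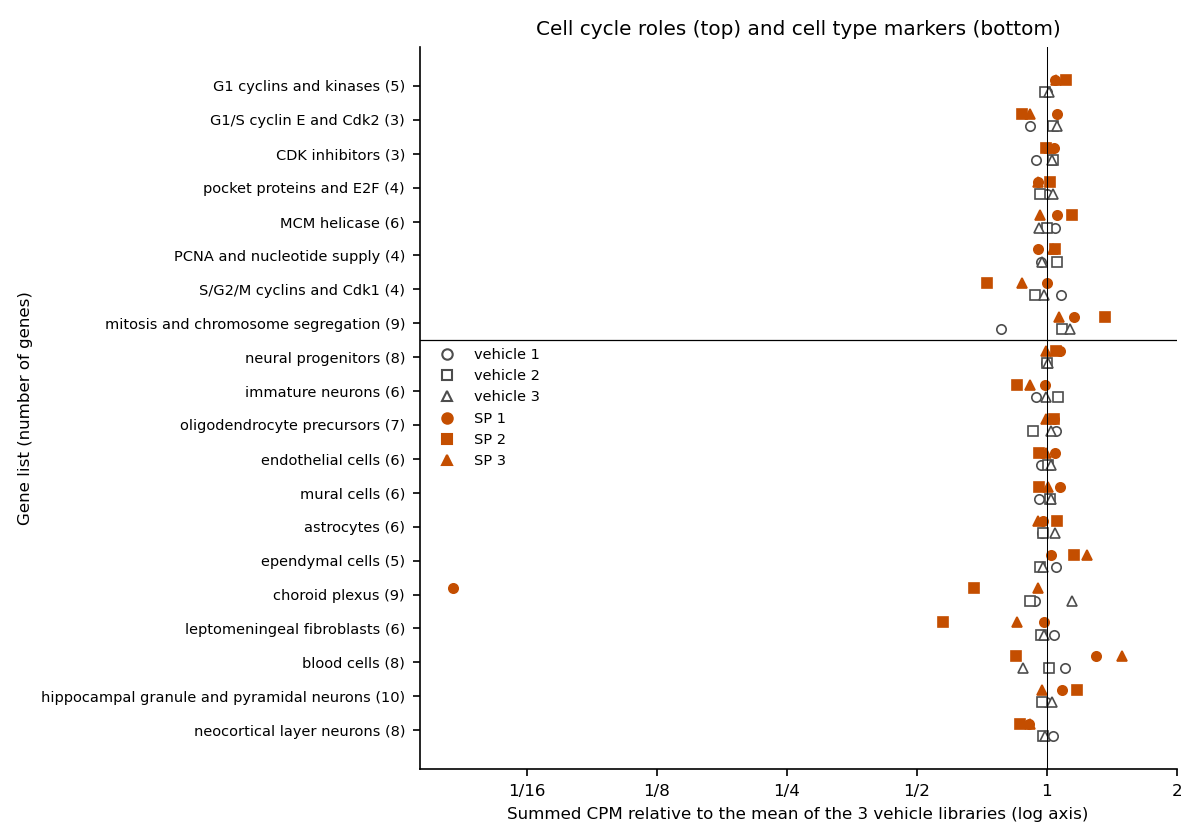
Summed CPM of each list in each library relative to the mean of the vehicle libraries (log axis), for the 8 roles of the members above the line and 12 lists of cell type markers below it. Most roles lie close to 1, the mitosis genes spread from 9.33 CPM in vehicle 1 to 16.2 CPM in SP 2, and choroid plexus markers fall to 176 CPM in SP 1.

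The other genes of these pathways gave a like picture. Of 127 such genes in 9 lists, 119 were tested, 0 passed the thresholds with edgeR, and 9 (7.56%) had an unadjusted p under 0.05, 5 higher and 4 lower, where all tested genes gave 10.1%. Their median log2 fold change was 0.028. Among partners of the pocket proteins, the other E2F, DP and MuvB genes, 0 of 15 had an unadjusted p under 0.05, with a range from -0.74 for *E2f7* to 0.33 for *Mybl2*. In origin licensing and firing it was 0 of 19, from -0.14 for *Cdt1* to 0.58 for *Gins1*, with *Orc1* at 0 counts in 1 library and not tested, and at the replication fork 1 of 22, which was lower, from -0.71 for *Pole2* to 0.21 for *Pold1*. The anaphase promoting complex had 1 of 17, which was *Anapc16*, higher by 0.17, and its lowest value was -0.056 for *Anapc2*. Spindle and kinetochore genes had 2 of 16, both higher, from -0.61 for *Ttk* to 0.55 for *Nuf2*, a kinetochore gene with 3.22, 2.06 and 2.61 CPM in the vehicle libraries and 4.47, 4.03 and 3.05 CPM in the SP libraries. CDK activation genes had 0 of 7, from -0.13 for *Ccnh* to 0.096 for *Wee1*, and SCF ligase and CDK subunit genes 0 of 8, from -0.35 for *Cks2* to 0.25 for *Cks1b*.

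The remaining CDK inhibitors had 1 of 3 and the p53 genes 4 of 12 with an unadjusted p under 0.05, against 10.1% of all tested genes. The groups did not overlap for 0 of the 3 inhibitors and for 4 of the 12 p53 genes, against 18.2% of all tested genes. These lists are short, as are several of those above, and no list was tested as a set. The inhibitor with such a p was *Cdkn1c*, which encodes p57. It had 13.9, 12.8 and 13.9 CPM in the vehicle libraries and 6.14, 9.84 and 13.0 CPM in the SP libraries. Its log2 fold change was -0.53 with an FDR of 0.433 from edgeR, and its lowest value was in library SP 1, the library with low choroid plexus markers, whose part in this value was not tested. *Cdkn2a*, which encodes p16 and p19 ARF, had 0 counts in some libraries and was not tested. The highest value among these inhibitors was 0.038 for *Cdkn2d*. Among 12 genes of p53 and its targets, 2 were higher and 2 lower at an unadjusted p under 0.05, from -0.27 for *Btg2* to 0.32 for *Sesn2*, with a lowest FDR of 0.385 and a median of 0.012. *Cdkn1a*, the p53 target among the members, had an FDR of 0.819 from edgeR.

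Some members share exons or sequence with other genes, and whether the counting used the strand of the reads is not given in the sources used here. Exons of 13 members overlapped those of a gene on the opposite strand, in 6 of them over more than 10% of their length when all such genes are counted. The longest share was 23.4% of *Ccnd1* with *LTO1*, then 20.97% of *Rbl2* with *Gm45464* and *Aktip*, 19.7% of *Cdk4* with *Tspan31*, 17.4% of *Ccne2* with *Ints8* and 14.9% of *Rb1* with *Rcbtb2* and *Lpar6*. Pseudogenes are a second source of shared reads, and 5 members had over 10% of their 31-base sequences in another gene. *Ccnb1* had 27.7%, *Mcm7* 26.8%, *Pcna* 23.3%, *Plk1* 14.8% and *Rrm2* 12.0%. How many reads come from the other gene also depends on its level, for example 74.5 CPM for *Aktip*, 44.1 CPM for *Tspan31* and 23.0 CPM for *Exosc9* but 0 CPM for the pseudogene *Ccnb1-ps*, and was not estimated here. *Bub1b* had no exon overlap and shared 0% of its sequences, and *Ccnd2* shared 0.0212%.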

How the data were processed

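The deposited values are estimated counts per gene, not normalized, which the authors obtained with Salmon after trimming (Trim Galore) and alignment to GRCm38 (STAR). Tool versions are not given in the sources used here. These values were rounded, since 9.77% were not whole. edgeR 4.0.16 in R 4.3.3 was run with TMM normalization, its filter on low counts (minimum 10, total 15), a quasi-likelihood test and Benjamini-Hochberg adjustment over 17069 genes, and was tested on simulated data. The labels call the replicate number a batch, so it was entered as a block, following the adjustment for replicates that the study's methods name. After subtracting each group's mean, same-numbered mice correlated over genes, which are no independent replicates, with a Pearson coefficient of 0.0118, -0.0798 and 0.0385. With 3 mice per group and the pairing ignored, a two-sided exact permutation test cannot reach a p below 0.1, and within pairs the limit is higher. DESeq2 1.42.0 was an alternative. Positions and exon lengths come from GENCODE M21. The members, lists and tests were chosen with earlier results of these data known. All members are named. Other pathway genes are named where they had FDR < 0.1, 0 counts or the lowest or highest log2 fold change of their list. Cell type markers are given as sums with the most abundant gene and any gene with 0 counts. The sums of 2 marker lists are not reported here.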

Additional observations from a re-analysis of the deposited data

How the results depend on the processing

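With edgeR or DESeq2, 0 members were called under each of the 9 alternative fits, and also 0 at FDR < 0.1 with no minimum fold change. DESeq2 gave an adjusted p for only 13 of 36 members with the block and 21 without it, so the others could not be called there. Without the replicate block, so with the pairing ignored, 2 genes were called in all, against 5 with the block, and 3 members had an unadjusted p under 0.05, with *E2f1* in place of *Ccna2*. Without a filter on low counts 384 genes were called, with at least 10 counts in every library 0, with DESeq2 and the block 36, and with DESeq2 and no block 133. DESeq2 with the block gave 0 members with an unadjusted p under 0.05. With 1 replicate number left out, which leaves 2 mice per group, 9 to 36 genes were called and 0 to 4 members had such a p. The causes of these changes were not tested. Of 322 log2 fold changes of members under the alternatives, 299 kept their direction and 23, from 19 members, changed sign, and the lowest FDR of a member, where given, was 0.21. Another 13 members kept their sign but moved by over 1.5 times when 1 replicate number was left out, with values given at each gene. With 1 replicate number left out, those that changed sign ranged from -0.088 to 0.020 for *Ccnd3*, from -0.098 to 0.025 for *Ccne1*, from -0.35 to 0.098 for *Ccne2*, from -0.067 to 0.36 for *Cdkn1a* and from -0.071 to 0.032 for *Cdkn1b*. Those of further members ranged from -0.13 to 0.059 for *Rb1*, from -0.042 to 0.0020 for *Rbl2*, from -0.12 to 0.16 for *Mcm2*, from -0.096 to 0.027 for *Mcm4* and from -0.027 to 0.086 for *Pcna*. Likewise, they ranged from -0.013 to 0.019 for *Rrm1*, from -0.12 to 0.026 for *Tyms*, from -0.087 to 0.52 for *Ccnb1*, from -0.0026 to 0.77 for *Ccnb2* and from -0.12 to 0.055 for *Cdk1*. The remaining ones ranged from -0.030 to 0.25 for *Top2a*, from -0.27 to 0.70 for *Cenpf*, from -0.28 to 0.075 for *Aurka* and from -0.40 to 0.38 for *Birc5*. *Rrm1* was also at -0.00023 with no filter and at -0.00015 with at least 10 counts in every library. For those with few counts, such as *Ccnb1*, depth limits what a difference between 3 mice per group can show.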
